A study of Mus musculus with 10 samples.

Results

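The transcripts of red blood cells followed here in whole-ovary RNA were the adult beta globins Hbb-bs and Hbb-bt, the adult alpha globins Hba-a1 and Hba-a2, Alas2 and Slc4a1. These are 6 of the 22891 genes in the deposited table, and 5 of them were among the 15629 genes that passed a filter on low values. The filter kept genes whose mean log2 value was at least 3.32, which is 10 on the linear scale. The members were chosen by gene symbol with the deposited values of all 10 libraries in view, so their levels, group differences and correlations are descriptions. Intervals, counts and p-values that involve a member are given for their size and support no relation or difference. The RNA came from 5 ovaries labelled Uba3 cKO and 5 labelled control, all from 3-week-old mice that had received no hormone stimulation, on a C57/Bl6/N;129SvEv7 background. Uba3 codes for the catalytic chain of the NEDD8-activating enzyme, NEDD8 being a small protein tag related to ubiquitin. The labels give neither the Cre driver nor the deleted exons, do not say whether controls carried the unrecombined allele, and do not state whether the ovaries were pooled or came from separate animals. P-values therefore measure the spread between these samples, which may be technical.

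Haemoglobin is a tetramer of alpha and beta globin chains, each holding a haem group, and red cell precursors make its chains and its haem together. Alas2 encodes the erythroid form of 5-aminolevulinate synthase, which starts haem synthesis, and Slc4a1 encodes band 3, the anion exchanger of the red cell membrane. Mature mouse red cells have no nucleus, and reticulocytes, the youngest circulating cells, still hold globin mRNA, so a whole organ brings globin transcripts in with its blood. In bulk RNA, fewer cells of a type and less RNA per cell cannot be told apart.

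The upstream sequences of the globin members and Alas2 are shown because the results turn on these genes. RefSeq promoter entries (build GRCm38.p6) matched 5 of the 6 members, and each line holds the 110 bases before the annotated start, 5′ to 3′ on the gene's strand. Capitals mark matches, on either strand, to 4 motifs, which were TATAA for the TATA box, CCAAT for the box of that name, CACCC for the box bound by Krüppel-like factors and GATA for the factors named after it. No base lay in more than 1 match. Hbb-bs lies at chr7:103827929-103828038 on the minus strand, Hbb-bt at chr7:103813924-103814033 on the minus strand, Hba-a1 at chr11:32283562-32283671 on the plus strand and Alas2 at chrX:150547307-150547416 on the plus strand.
Hbb-bs: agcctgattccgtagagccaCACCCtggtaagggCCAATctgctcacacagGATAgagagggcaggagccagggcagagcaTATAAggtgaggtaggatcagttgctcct
Hbb-bt: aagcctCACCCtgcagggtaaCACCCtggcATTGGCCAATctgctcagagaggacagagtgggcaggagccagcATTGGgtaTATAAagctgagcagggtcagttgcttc
Hba-a1: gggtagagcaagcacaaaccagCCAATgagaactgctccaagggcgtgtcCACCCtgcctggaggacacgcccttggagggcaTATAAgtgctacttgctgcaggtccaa
Alas2: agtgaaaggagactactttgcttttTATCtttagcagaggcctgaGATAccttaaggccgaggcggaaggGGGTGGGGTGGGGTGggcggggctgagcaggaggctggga

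All 3 globin windows held the TATA, CCAAT and CACCC motifs, a set found in 182 of the 32851 promoter windows of the same length (0.554%). In Hbb-bs the CACCC match began 90 bases before the start, the CCAAT match 76 bases before it and TATAA 29 bases before it. Alas2 held CACCC 3 times on the other strand and GATA on both strands, with no TATAA or CCAAT. Single motifs were common, with TATAA in 10.9% of all windows, CCAAT in 20.2%, GATA in 27.3% and CACCC in 29.6%. The window of Hba-a2 is not printed, because the 250 bases upstream of Hba-a1 and Hba-a2 share a run of 247 identical bases. The longest shared run upstream of Hbb-bs and Hbb-bt was 14 bases.

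The globin pairs are also nearly the same in their transcripts. The longest reading frames of Hbb-bs and Hbb-bt are 444 bases each and differ at 1 base, and those of Hba-a1 and Hba-a2 are 429 bases each and also differ at 1 base. Of all 100-base windows in the longest annotated transcript, 62.6% in Hbb-bs and 54.8% in Hbb-bt occurred unchanged in the other beta gene. For the alpha genes the shares were 56.5% in Hba-a1 and 74.5% in Hba-a2. How reads that match both copies were assigned is not given in the sources used here, so the split between the copies of a pair is uncertain, and sums over a pair are given below. Alas2 shared 10.99% of its windows with transcripts of Apex2, a nuclease gene, and Slc4a1 shared none with any other gene.

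The beta globin gene Hbb-bs was the highest member. Hbb-bs (ENSMUSG00000052305, chromosome 7) stood at 9.96, 9.49, 9.68, 10.46 and 10.44 log2 units in Uba3 cKO replicates 1 to 5, against 11.22, 10.20, 9.87, 9.97 and 10.14 in control replicates 1 to 5. The groups overlapped, and control replicate 1 was above every other library by 0.76. The means were 10.01 ± 0.44 in Uba3 cKO ovaries and 10.28 ± 0.54 in control ovaries (SD, n = 5 each). The log2 difference was -0.27 (standard error 0.25, 95% interval -0.82 to 0.27), which corresponds to a fold between 0.568 and 1.205. Hbb-bs lay above 76.1% of the genes tested by its mean deposited value, which is not scaled for length.

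The other beta gene followed the same libraries at a lower level. Hbb-bt (ENSMUSG00000073940, chromosome 7) stood at 6.51, 6.11, 6.30, 6.88 and 6.55 in Uba3 cKO replicates 1 to 5, against 7.89, 6.85, 6.20, 6.02 and 6.57 in control replicates 1 to 5. Control replicate 1 was again the highest, by 1.02, while control replicate 4 was the lowest of all 10. The means were 6.47 ± 0.29 in Uba3 cKO ovaries and 6.71 ± 0.74 in controls, a log2 difference of -0.24 (standard error 0.29, 95% interval -0.86 to 0.39).

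The alpha globin gene Hba-a1 (ENSMUSG00000069919, chromosome 11) had the widest range of the 6 members. It stood at 8.74, 8.32, 8.34, 9.41 and 8.72 in Uba3 cKO replicates 1 to 5, against 10.17, 8.93, 8.71, 8.08 and 8.87 in control replicates 1 to 5, a 4.27-fold range between control replicates 4 and 1. Both ends of that range were control libraries, and all Uba3 cKO values lay inside it. The means were 8.71 ± 0.44 in Uba3 cKO ovaries and 8.95 ± 0.76 in controls, a log2 difference of -0.24 (standard error 0.32, 95% interval -0.93 to 0.44).

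The second alpha gene, Hba-a2 (ENSMUSG00000069917, chromosome 11), stood at 5.83, 5.29, 5.63, 5.77 and 5.42 in Uba3 cKO replicates 1 to 5, against 6.94, 5.80, 5.65, 4.95 and 5.49 in control replicates 1 to 5. Here too control replicate 1 was highest and control replicate 4 lowest. The log2 difference was -0.18 (standard error 0.28, 95% interval -0.78 to 0.42).

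The haem synthesis gene had the narrowest range of the members above the filter. Alas2 (ENSMUSG00000025270, chromosome X) stood at 5.57, 5.58, 5.47, 5.97 and 5.65 in Uba3 cKO replicates 1 to 5, against 6.53, 5.55, 5.26, 5.53 and 5.65 in control replicates 1 to 5. Apart from control replicate 1 and Uba3 cKO replicate 4, its values lay between 5.26 and 5.65 in both groups. The log2 difference was -0.057 (standard error 0.19, 95% interval -0.48 to 0.36). Apex2, which shares windows with Alas2, stood at 8.19 ± 0.023 in Uba3 cKO ovaries and 8.16 ± 0.12 in control ovaries.

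The membrane gene was near the bottom of the table. Slc4a1 (ENSMUSG00000006574, chromosome 11) stood at 0.37, 0.40, 0.33, 0.33 and 0.33 in Uba3 cKO replicates 1 to 5, against 0.44, 0.39, 0.33, 0.32 and 0.33 in control replicates 1 to 5. It was under the filter and was not tested. Its values differed by less than those of the other members, and the transform behind them is not named, so its order of libraries, with control replicate 1 again highest, is a description only.

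**Figure D1:**
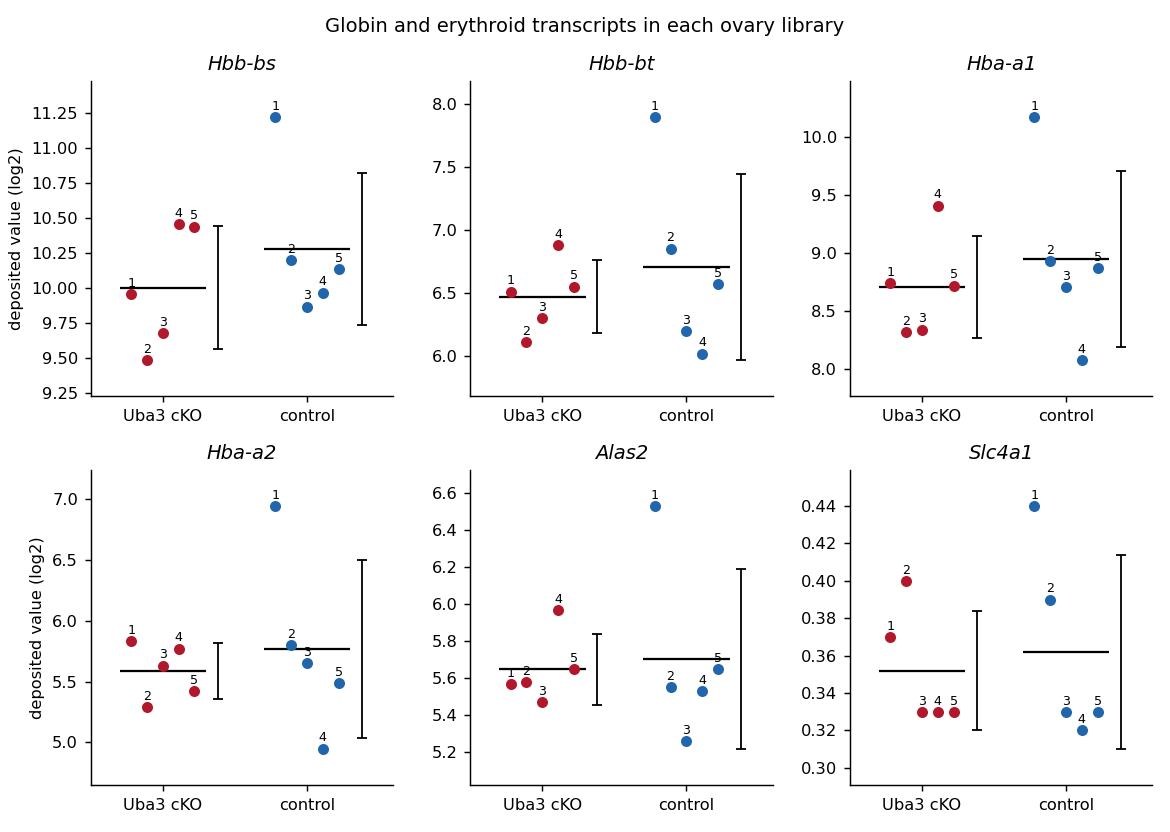
Deposited log2 values of the 6 members in each library, with Uba3 cKO ovaries at the left and control ovaries at the right of each panel; numbers are replicates, lines are group means and bars are 1 SD (n = 5 each), and each panel has its own axis. Control replicate 1 is the highest point in all 6 panels, at 11.22 for Hbb-bs and 10.17 for Hba-a1, and the other control values overlap those of Uba3 cKO ovaries.

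The members differed in level by a wide margin once transcript length was taken into account. On the deposited log2 scale less log2 of the transcript length in kilobases, Hbb-bs averaged 10.68 in Uba3 cKO ovaries and 10.95 in controls. Hba-a1 followed at 9.22 in Uba3 cKO ovaries and 9.47 in controls, and Hbb-bt at 6.98 in Uba3 cKO ovaries and 7.21 in controls. Next came Hba-a2 at 6.44 in Uba3 cKO ovaries and 6.62 in controls, then Alas2 at 4.62 in Uba3 cKO ovaries and 4.68 in controls, and Slc4a1 last. This order held in each of the 10 libraries. The closest neighbours were Hbb-bt and Hba-a2, whose per-length gap ran from 0.21 to 0.79, and the gap between Hbb-bs and Hba-a1 ran from 1.203 to 2.05.

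The targeted gene was checked for the labels. Uba3 stood at 10.12 ± 0.069 in Uba3 cKO ovaries and 10.12 ± 0.18 in control ovaries, so its level in whole ovary did not separate them. The labels do not say in which cells it was deleted, and the groups are named as labelled. The follicle markers that define the tissue were abundant, with a mean level over 7 granulosa markers of 13.46 ± 0.092 in Uba3 cKO ovaries and 13.37 ± 0.040 in controls, and over 8 oocyte markers of 10.58 ± 0.38 in Uba3 cKO ovaries and 10.63 ± 0.29 in controls. Library medians ran from 6.29 to 6.44, while read depth cannot be had from these values.

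No member was called between ovaries labelled Uba3 cKO and controls. By limma with Benjamini-Hochberg adjustment over all 15629 genes, 0 genes passed an adjusted p of 0.05 (0% of those tested), so 0 of the 5 members above the filter did. Before adjustment, 280 genes had p under 0.05 (1.79%), and 0 of the 5 members were among them. The groups did not overlap for 50 genes (0.32%), again with 0 of the 5 members. All 5 had the lower mean in Uba3 cKO ovaries, with a median log2 difference of -0.24, beside a median of 0.00034 over all genes tested, of which 49.8% had the lower mean. These shares stand beside the counts as background, since the members were chosen with these values known, and a pair of near-identical genes gives no independent direction.

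The lower means rested on 1 control library. Without control replicate 1 the difference turned positive for 4 of the 5 members, to 0.060 for Hbb-bt, 0.060 for Hba-a1, 0.11 for Hba-a2 and 0.15 for Alas2, and was -0.039 for Hbb-bs. With that library left out, Hbb-bs averaged 10.05 ± 0.15 (SD, n = 4) in controls, and Hba-a1 averaged 8.65 ± 0.39 (SD, n = 4). With the copies of each pair added on the linear scale, the beta sum differed by -0.27 and the alpha sum by -0.24 with all libraries.

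**Figure D2:**
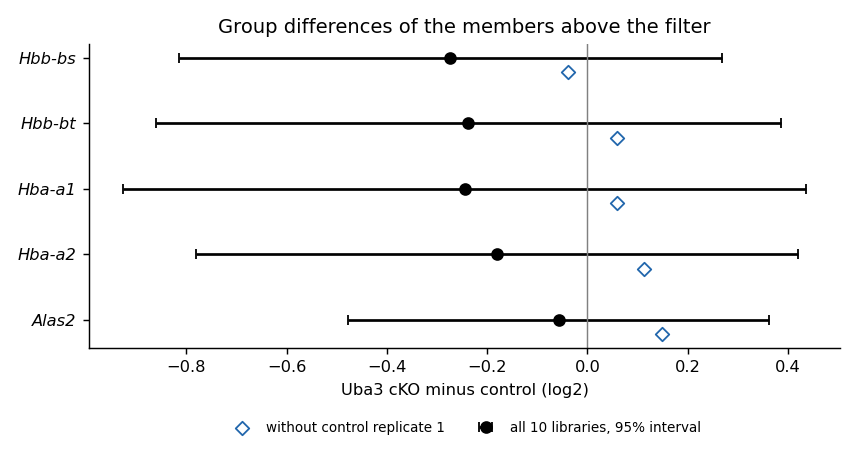
Log2 differences, Uba3 cKO minus control, for the 5 members above the filter; black points are limma estimates from all 10 libraries with 95% intervals, and open diamonds leave out control replicate 1. All 5 intervals span 0, and 4 of the 5 diamonds lie right of 0, as far as 0.15 for Alas2.

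The spread over all 10 libraries was large for genes of this level. The SD of Hbb-bs over all 10 libraries was 0.49, larger than that of 99.6% of the 2706 tested genes whose mean lay within 0.5 log2 units of it, where the median SD was 0.12. For Hba-a1 the SD was 0.60, larger than that of 99.7% of 2460 such genes, and for Hbb-bt 0.54, larger than that of 99.1% of 1264. For Hba-a2 the share was 98.5% and for Alas2 96.1%. Without control replicate 1 the SD of Hbb-bs was 0.32, that of Hba-a1 0.39, that of Hbb-bt 0.31 and that of Hba-a2 0.28. For Alas2 it fell from 0.35 to 0.19, close to the median SD of 0.18 over all libraries for genes near its level. The large spread of Alas2 thus rested on that library. Control replicate 1 was the highest of 10 libraries for all 6 members, and for 10.03% of all genes tested.

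The members above the filter varied together over all 10 libraries, and less so without control replicate 1. Over the 10 libraries Pearson's r was 0.96 between Hbb-bt and Hba-a1, genes on different chromosomes that share no 100-base window, and 0.89 between them without control replicate 1. Between Hbb-bs and Hba-a1 it was 0.89, and 0.71 without that library. Alas2 had r of 0.86 with Hbb-bs and of 0.86 with Hba-a1, and without control replicate 1 these were 0.60 and 0.59. Alas2 and Hba-a2 had the weakest tie without it, with r of 0.77 over 10 libraries and 0.12 over 9. Between Hbb-bs and Hba-a2 r was 0.75 over 10 libraries and 0.26 over 9. Spearman's rho over 10 libraries ran from 0.26 for Alas2 with Hba-a2 to 0.98 for Hbb-bt with Hba-a1, and was 0.43 for Hbb-bs with Hba-a2. These correlations are descriptions over shared libraries of members chosen with their values known.

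Within libraries, the balance of the globin transcripts was close in the groups but not the same in every library. Hbb-bs exceeded Hba-a1 by 1.22, 1.17, 1.34, 1.05 and 1.72 log2 units in Uba3 cKO replicates 1 to 5, against 1.05, 1.27, 1.16, 1.90 and 1.27 in control replicates 1 to 5. Uba3 cKO replicate 5 and control replicate 4 were the highest, 1 in each group, with a gap of 0.38 to the next library. The group means were 1.30 ± 0.26 in Uba3 cKO ovaries and 1.33 ± 0.33 in controls, so the groups differed by -0.028, far less than the spread within them.

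The same libraries stood apart in the difference between the beta genes. Hbb-bs exceeded Hbb-bt by 3.45, 3.38, 3.38, 3.58 and 3.89 in Uba3 cKO replicates 1 to 5, against 3.32, 3.35, 3.67, 3.95 and 3.57 in control replicates 1 to 5. Uba3 cKO replicate 5 and control replicate 4 were again the highest, by 0.22 over the next library. By contrast, Hbb-bt minus Hba-a1 ran only from -2.53 to -2.04 and set neither of these libraries apart. In both libraries Hbb-bs was high against both Hbb-bt and Hba-a1.

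The alpha genes kept their distance differently. Hba-a1 exceeded Hba-a2 by 2.91, 3.03, 2.72, 3.64 and 3.30 in Uba3 cKO replicates 1 to 5, against 3.23, 3.13, 3.06, 3.13 and 3.37 in control replicates 1 to 5. The SD of this difference was 0.36 in Uba3 cKO ovaries and 0.12 in control ovaries, with Uba3 cKO replicates 3 and 4 at its ends. With both copies added per kilobase, beta exceeded alpha by 1.36 ± 0.25 in Uba3 cKO ovaries and 1.40 ± 0.31 in controls, and by 1.14 to 1.94 over all libraries, or 2.21- to 3.83-fold.

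**Figure D3:**
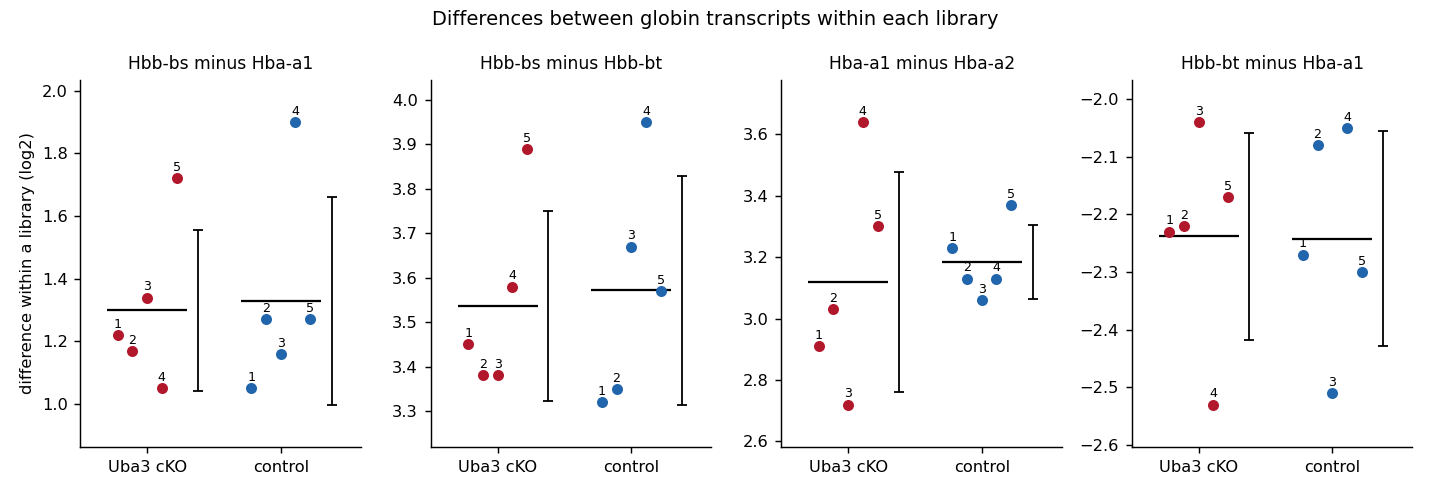
Differences between globin transcripts within each library on the log2 scale, with Uba3 cKO ovaries at the left and controls at the right; numbers are replicates, lines are group means and bars are 1 SD (n = 5 each). Uba3 cKO replicate 5 and control replicate 4 are highest in both differences that subtract from Hbb-bs, at 1.72 and 1.90 over Hba-a1, and not in Hbb-bt minus Hba-a1.

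Other genes of the red cell lineage were split between higher and lower means. Of 58 genes in 5 lists, 43 were found in the table and 34 passed the filter, of which 0 were called, 19 had the higher mean in Uba3 cKO ovaries and 15 the lower (median difference 0.0082). Among other globins, Hbb-y, an embryonic beta-like globin, stood between 0.23 and 0.33 in all libraries. The symbols of the remaining 7, Hbb-b1 and Hbb-b2 among them, were not found in the table. The 11 tested genes of haem synthesis, a pathway not confined to red cells, had a median difference of 0.016, with 7 higher in Uba3 cKO ovaries and 4 lower. Cpox, the coproporphyrinogen oxidase, stood at 9.59 ± 0.090 in Uba3 cKO ovaries and 9.47 ± 0.25 in controls.

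The 8 tested genes of the red cell membrane and skeleton had 5 higher means and 3 lower, with Gypc, a glycophorin, at 8.16 ± 0.091 in Uba3 cKO ovaries and 8.004 ± 0.14 in controls, and Sptb, a beta spectrin, at 7.68 ± 0.41 in Uba3 cKO ovaries and 7.87 ± 0.31 in controls (median difference of the list 0.010). Of 7 tested genes of erythroid transcription and signalling, 3 had the higher mean and 4 the lower (median difference -0.0098). In that list Klf1, the erythroid Krüppel-like factor, stood at 3.99 ± 0.10 in Uba3 cKO ovaries and 3.90 ± 0.13 in controls. Epor, the erythropoietin receptor, stood at 4.17 ± 0.15 in Uba3 cKO ovaries and 4.32 ± 0.12 in controls.

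Genes of red cell maturation were split as well. Of 8 tested, 4 had the higher mean in Uba3 cKO ovaries and 4 the lower (median difference 0.013). Tfrc, the transferrin receptor that takes up iron, stood at 10.22 ± 0.18 in Uba3 cKO ovaries and 10.11 ± 0.22 in controls. Car1, the carbonic anhydrase of red cells, stood between 0.31 and 0.43 in all libraries. In these 4 tested lists no gene had an unadjusted p under 0.05 by limma.

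Of the tested genes that clear haem and haemoglobin, 7 of 9 had the lower mean in Uba3 cKO ovaries, beside 49.8% of all genes tested. Their median difference was -0.077 and 0 were called. Lrp1, the receptor that takes up haem bound to haemopexin, stood at 13.66 ± 0.15 in Uba3 cKO ovaries and 13.85 ± 0.23 in controls. Its highest value was 14.22 in control replicate 1, with the next at 13.84. Ftl1, the ferritin light chain, stood at 12.62 ± 0.085 in Uba3 cKO ovaries and 12.81 ± 0.31 in controls. It reached 13.37 in control replicate 3 and ran from 12.50 to 12.72 in the other libraries. Slc40a1, the iron exporter ferroportin, stood at 9.96 ± 0.097 in Uba3 cKO ovaries and 10.08 ± 0.19 in controls, with 10.41 in control replicate 1 as its highest value.

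The likeness of each gene to the globins was measured as Pearson's r over 10 libraries with the mean standardized profile of the 4 adult globins. The 10 tested non-members with the highest r were Ank2, Gm14403, Csmd1, Gabrb2, Arsj, Slc40a1, Pou6f1, Gm10020, Paqr9 and Astn1, from 0.90 for Ank2 down to 0.84 for Astn1, and 1 of these 10 was in one of the 18 gene lists. All 10 had their highest value in control replicate 1. Without that library their r lay between -0.017 for Gm10020 and 0.81 for Gm14403, and that of Slc40a1 was 0.45. Alas2 had r of 0.89 over 10 libraries and 0.57 without control replicate 1, while the median r of the 4 red cell lists with tested genes lay between -0.098 and 0.065, beside 0.0075 over 15624 genes.

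Few markers of other blood cells passed the filter. Neutrophil markers S100a8 and S100a9 stood between 0.53 and 0.78 in all libraries and Cxcr2 was near 0. Mpo, the myeloperoxidase of neutrophil precursors and the only neutrophil marker above the filter, stood at 3.85 ± 0.22 in Uba3 cKO ovaries and 3.55 ± 0.13 in controls (limma adjusted p = 0.9999, unadjusted p = 0.0101). Pf4, platelet factor 4, stood at 4.23 ± 0.10 in Uba3 cKO ovaries and 4.21 ± 0.20 in controls, and Itga2b, a platelet integrin, at 4.69 ± 0.061 in Uba3 cKO ovaries and 4.67 ± 0.17 in controls. The median difference of the 3 tested platelet markers was 0.022. Of 3 tested lymphocyte markers all had the higher mean in Uba3 cKO ovaries (median 0.16), with Cd4, a co-receptor of T cells, at 4.38 ± 0.092 in Uba3 cKO ovaries and 4.23 ± 0.096 in controls (limma adjusted p = 0.9999, unadjusted p = 0.0372), and Ms4a1, the B cell antigen CD20, at 6.25 ± 0.25 in Uba3 cKO ovaries and 6.04 ± 0.18 in controls.

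Vessel and tissue markers were also set beside the globins, since blood comes with vessels. The 10 blood endothelium markers had a mean level of 7.63 ± 0.36 in Uba3 cKO ovaries and 7.55 ± 0.21 in controls, with 9 of 10 higher in Uba3 cKO ovaries and a median difference of 0.069. Tek, an angiopoietin receptor, stood at 6.94 ± 0.28 in Uba3 cKO ovaries and 6.74 ± 0.24 in controls, and Plvap, a protein of fenestrated endothelium, at 7.30 ± 0.39 in Uba3 cKO ovaries and 7.13 ± 0.22 in controls. The 4 lymphatic markers had a median difference of 0.15, with Lyve1, a hyaluronan receptor, at 6.59 ± 0.31 in Uba3 cKO ovaries and 6.43 ± 0.11 in controls. Of 7 macrophage markers 2 had the higher mean and 5 the lower (median -0.065), with Mrc1, the mannose receptor, at 6.68 ± 0.35 in Uba3 cKO ovaries and 6.47 ± 0.24 in controls, and C1qb, a complement subunit, at 6.46 ± 0.20 in Uba3 cKO ovaries and 6.57 ± 0.20 in controls. Of 8 smooth muscle and pericyte markers 6 had the lower mean (median -0.046), with Des, desmin, at 6.94 ± 0.21 in Uba3 cKO ovaries and 7.22 ± 0.57 in controls. The median difference was 0.11 for 7 stromal markers and 0.19 for 3 adipocyte markers, with Plin1, the lipid droplet protein perilipin, at 5.75 ± 0.39 in Uba3 cKO ovaries and 5.56 ± 0.26 in controls.

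Follicle cells gave the same picture of overlapping groups. Of 7 granulosa markers 6 had the higher mean and 1 the lower (median 0.066), with Inhbb, an inhibin and activin subunit, at 14.60 ± 0.45 in Uba3 cKO ovaries and 14.31 ± 0.30 in controls. Of 6 theca and steroidogenic markers 1 had the higher mean and 5 the lower (median -0.10). Insl3, a hormone of theca cells, stood at 3.47 ± 0.084 in Uba3 cKO ovaries and 3.58 ± 0.27 in controls, and the 1 with the higher mean was Hsd3b1, a steroid dehydrogenase, at 13.72 ± 0.24 in Uba3 cKO ovaries and 13.52 ± 0.50 in controls. Of 8 oocyte markers 2 had the higher mean and 6 the lower (median -0.043), with Figla, an oocyte transcription factor, at 5.16 ± 0.23 in Uba3 cKO ovaries and 5.36 ± 0.48 in controls. Of the 67 tested cell type markers 0 were called and 2, Mpo and Cd4, had an unadjusted p under 0.05 by limma.

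In control replicate 1 some tissue markers were high and others low. Its level was the highest of 10 libraries for 3 of 12 cell type lists, at 8.71 for theca and steroidogenic markers, 8.63 for smooth muscle and pericyte markers and 5.97 for macrophage markers. Levels in the other libraries ran from 7.76 to 8.40, from 7.84 to 8.50 and from 5.50 to 5.89 for these lists. For blood endothelium it ranked at 7.79 below Uba3 cKO replicates 4 and 2, at 8.05 and 7.82. It was the lowest of 10 libraries for the lymphocyte level, at 4.99, and ranked 9 of 10 for the oocyte level, at 10.30. For neutrophils, where Mpo was the only marker tested, it also ranked 9 of 10, at 3.47, near the filter of 3.32. The part of these cell types in the globin values was not tested. The slope of its deviations on log2 transcript length over 9182 genes was 0.042, inside the range of the other libraries from -0.18 to 0.069. The low end of that range was control replicate 3 alone, and the next lowest slope was -0.074 in Uba3 cKO replicate 1.

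No pair of a globin gene and a list level passed adjustment, which with 10 libraries does not show that none is related. Hbb-bs and Hba-a1 were each compared with the mean level of 16 lists that had at least 3 tested genes, which gave 32 pairs, and 0 passed in two-sided permutation tests with 100000 resamples (smallest adjusted p = 0.407 for Pearson's r and 0.177 for Spearman's rho). Before adjustment, 3 pairs had p under 0.05 by each measure. The lymphocyte level had r of -0.70 with Hbb-bs (permutation p = 0.0266, adjusted p = 0.407; rho = -0.48, permutation p = 0.166). Without the pair of libraries farthest from the median of Hbb-bs, which were control replicate 1 and Uba3 cKO replicate 2, it was -0.071, so this relation rested on them. The theca and steroidogenic level had r of 0.68 with Hba-a1 (permutation p = 0.0326, adjusted p = 0.407; rho = 0.20, permutation p = 0.584). Without control replicate 1 and Uba3 cKO replicate 4 it turned to -0.43, so it too rested on them.

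The adipocyte level, a mean of 3 genes, had a negative correlation with Hbb-bs that did not pass adjustment over all 10 libraries. It had r of -0.69 (permutation p = 0.0382, adjusted p = 0.407) and rho of -0.82 (permutation p = 0.00552, adjusted p = 0.177) over 10 libraries, and r of -0.85 without control replicate 1 and Uba3 cKO replicate 2. Without Uba3 cKO replicate 2 alone r was -0.59. Its genes were not alike, with r to the globin profile of -0.71 for Cfd, -0.57 for Fabp4 and 0.14 for Plin1. With control replicate 1 alone left out r was -0.90 (exact permutation test over 9 libraries, adjusted p = 0.0184), but that library is the highest for all 6 members, which were chosen with these values known, so this value supports no relation. With each group centred on its own mean r was -0.67, and with Hba-a1 in place of Hbb-bs it was -0.53 (permutation p = 0.123, adjusted p = 0.523; rho = -0.76, permutation p = 0.0145). The platelet level had r of -0.57 with Hbb-bs (permutation p = 0.0833, adjusted p = 0.523) and rho of -0.72 (permutation p = 0.0231, adjusted p = 0.246), and r of -0.78 without the same extreme libraries. Among red cell lists, the maturation level had r of 0.26 with Hba-a1 (permutation p = 0.485; rho = 0.43, permutation p = 0.219) and 0.71 without control replicate 1. The membrane and skeleton level had r of 0.12 with Hba-a1 (permutation p = 0.763; rho = 0.15, permutation p = 0.682) and 0.57 without that library. The blood endothelium level had r of 0.21 with Hbb-bs (permutation p = 0.573; rho = 0.19, permutation p = 0.608) and 0.46 with Hba-a1 (permutation p = 0.186; rho = 0.33, permutation p = 0.351).

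**Figure D4:**
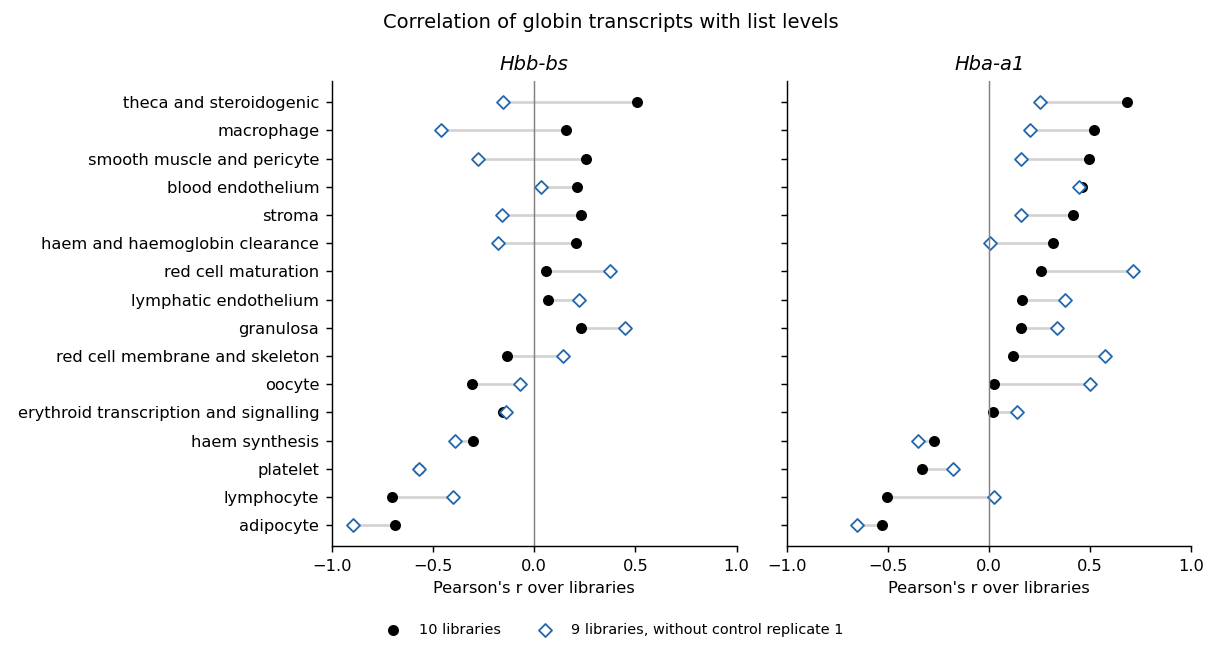
Pearson's r of Hbb-bs (left) and Hba-a1 (right) with the mean level of 16 gene lists, over 10 libraries (black) and without control replicate 1 (open diamonds). For Hbb-bs the adipocyte level lies at -0.69 and at -0.90 without that library, and the theca and steroidogenic level at 0.51 with all libraries and at -0.15 without it.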

How the data were processed

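Total RNA of whole ovaries was extracted with a PicoPure kit and made into TruSeq libraries, per the labels' protocols. The deposited values are normalized and on a log2 scale, with 1 column per library and no named transform. Fastp, STAR, featureCounts and DESeq2 with build GRCm39 are listed, with no role or version, per the submitters' processing notes. Where a transform draws low genes toward their mean, their differences and spreads are understated; this was not tested, and depth and counting error are unknown.

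Symbols were found for 22188 of 22891 identifiers in GENCODE M21 (GRCm38), which was used only for names, lengths and sequences. No pair of libraries was identical. The filter kept genes with a mean log2 value of at least 3.32 (10 on the linear scale). The groups were fitted by limma (version 3.58.1, under R 4.3.3), its prior variance following the mean level, with Benjamini-Hochberg adjustment at 0.05. The fit was checked on simulated data. Correlations used permutation tests. Of 164 members of 18 gene lists 134 were found. Named genes were the members, Uba3, the 2 with the smallest p from each list, as none was called, and the 10 most like the globins; other genes were named after their values were seen. Some genes that the rule names are not reported here. Members and lists were chosen with earlier results of these data known. Alternatives were other filters, variance models, weights, centring and scales, a replicate block and each library left out.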

Additional observations from a re-analysis of the deposited data

Results flagged for a closer look

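Among 58 groups of 5 libraries examined, 5 held a library whose gap to the nearest of the others exceeded 0.71 of the group's range, where chance flags about 1 in 20. Control replicate 1 stood apart for Hbb-bs at 11.22, with the next control at 10.20, and for the beta globin sum at 11.36, with the next at 10.34. Control replicate 4 stood apart for Hbb-bs minus Hba-a1 at 1.90, with the next at 1.27, and for beta over alpha globin per kilobase at 1.94, with the next at 1.36. Both pairs of values share Hbb-bs. Uba3 cKO replicate 5 stood apart for the macrophage level at 5.50, with the next Uba3 cKO library at 5.77. No cause was tested.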

How the results depend on the processing

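No gene, and so none of the members or list genes, was called by limma in the 16 alternative settings, the replicate block included (0 genes). Same-numbered libraries varied together weakly or not at all (correlation of deviations from -0.27 to 0.28). The labels state no pairing, and these correlations cannot decide whether libraries were paired. The median member difference of -0.24 was unchanged with the replicate block (-0.24), and with each library left out it ran from -0.38 to 0.060, positive without control replicate 1. The median SD of the 5 members over libraries, 0.52, ran from 0.31 without control replicate 1 to 0.55. The count of called correlations ran from 0 to 1 with each library left out, with 1 without control replicate 1. Other alternatives kept the median member difference within the replicate spread, the median SD within its standard error and the count of called correlations at 0. Because depth is unknown, no difference could be resolved for Slc4a1 or for the 9 of 43 red cell list genes under the filter.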

Other observations

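Cfd and Ltf, 1 gene each from the adipocyte and neutrophil lists, were uneven across the libraries and do not stand for their lists. Cfd, the adipokine adipsin, stood at 5.94, 7.28, 5.72, 4.95 and 4.80 in Uba3 cKO replicates 1 to 5, against 4.69, 4.69, 5.62, 6.25 and 5.24 in control replicates 1 to 5. It was highest in Uba3 cKO replicate 2, the library with the lowest Hbb-bs, and lowest in control replicates 1 and 2. Ltf, the lactoferrin of neutrophil granules and epithelia, stood at 2.70, 2.69, 2.74, 3.43 and 2.72 in Uba3 cKO replicates 1 to 5, against 2.71, 2.73, 2.75, 2.72 and 3.96 in control replicates 1 to 5, so that 1 library of each group was high. It was under the filter, and Cfd and Ltf are described with their values known.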
